A study of Sus scrofa with 4 samples.

Results

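The genes described here are 28 interferon response genes, measured in single cells of regenerated bone. They were chosen by name from a list of 29 symbols, and 28 of the 20648 genes in the count matrices carry one of them. The symbol IFIT5 had no row, and the RefSeq gene table gives that name as a synonym of LOC100151816, which was not counted as a member. All samples came from the bone of Bama mini-pigs aged 8 months, a small pig breed with no transgene or deletion named in the labels. A peptide called 1797 (2 libraries) was set against a control peptide (2 libraries), and other control samples named in the series text were not analysed here. The labels give neither the sequence nor the dose of either peptide. Nothing in them ties the libraries of 1 group to different animals, so the p-values below measure only the spread between these libraries, which may be technical.

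Interferons are cytokines that cells release when they sense foreign or misplaced nucleic acid. Type I and type III interferons signal through the kinases JAK1 and TYK2 to transcription factors that include STAT2 and IRF9, interferon-gamma signals through JAK1 and JAK2, and both routes switch on overlapping sets of genes. Their products sense viral RNA, block its translation, degrade it or modify proteins, and some of them feed back on the receptor. In bone, interferons are known to hold back osteoclast formation, and neutrophils are among the blood cells in which this gene set is strongly inducible.

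The 4 libraries held 12133 to 14496 barcodes and 87844389 to 98758412 UMIs (unique molecular identifiers, which count captured 3′ ends of transcripts). After filtering, 49522 cells were kept, 11560 to 12954 in each library, with a median of 3053 to 5338 UMIs. Libraries shared 42 to 63 cell barcodes by pair, at most 0.451% of those in either one. Cells were grouped without the member genes into 31 clusters, and a cell type name below means a cluster with the markers of that type. The 12 classes that reached 50 cells in each library were compared. Neutrophil-like cells, which carried CSF3R, CXCR2 and other neutrophil markers, made up 17.8% and 39.9% of the kept cells with peptide 1797, against 15.7% and 33.6% with the control peptide. In those cells the summed level of 12 neutrophil markers was 21146 and 41860 CPM against 19153 and 56556 CPM, so that it followed the library number and not the peptide. CPM is the UMI count of a gene per 1000000 UMIs of that class in that library. Throughout, the values of a group stand in the order library 1, library 2.

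Several members lie side by side in the genome and resemble each other, so that reads could be split between them. On the Sscrofa11.1 build, IFIT2, IFIT3 and IFIT1 lie on chromosome 14 between 101193421 and 101249486, OAS2 and OAS1 on chromosome 14 between 38827667 and 38867427, MX2 and MX1 on chromosome 13 between 204798633 and 204868927, GBP2 and GBP1 on chromosome 4 between 127387222 and 127442132, IFI44 and IFI44L on chromosome 6 between 134634679 and 134679212, and HERC5 and HERC6 on chromosome 8 between 130532256 and 130665591. RSAD2 and CMPK2, which are no relatives, are also neighbours on chromosome 3, at 128880853 to 128897809 and 128903395 to 128917873. Levels of different genes are compared below as UMI counts of 3′ ends.

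The first question was in which classes these genes take the largest share of the UMIs without peptide 1797. In the control libraries, neutrophil-like cells had by far the highest summed level of the members, at 5807 and 4186 CPM, and no library of another class reached either value. NK or cytotoxic T cell-like cells followed with 1776 and 2227 CPM, macrophage-like cells with 1063 and 2238 CPM, endothelial-like cells with 1631 and 1536 CPM and T cell-like cells with 1230 and 1529 CPM. The next were a cluster led by SOX13 and BLK, which scored highest for T cell markers but had 0 of them among its 10 leading genes and was given no type name (897 and 1288 CPM), B cell-like cells (969 and 1083 CPM) and monocyte-like cells (944 and 1029 CPM). Dendritic cell-like cells held 725 and 752 CPM, cells with osteoclast and macrophage markers 651 and 558 CPM, plasmacytoid dendritic cell-like cells 548 and 621 CPM, and a class of stromal, osteoblast and chondrocyte markers 459 and 445 CPM. Neighbours in this order overlapped in their libraries except at 5 steps: below neutrophil-like, endothelial-like, monocyte-like, dendritic cell-like and plasmacytoid dendritic cell-like cells. Erythroid-like cells, which were not compared because control library 2 held 48 of them, stood at 1879 and 1945 CPM. This order is one of shares and not of UMIs per cell. In the control libraries the median depth was 1610 and 2158 UMIs in neutrophil-like cells and 18460 and 20089 in monocyte-like cells. The former held 21013 member UMIs in 2034 cells and 47213 in 3881, the latter 8438 in 474 and 10309 in 493, which is more per cell.

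**Figure D1:**
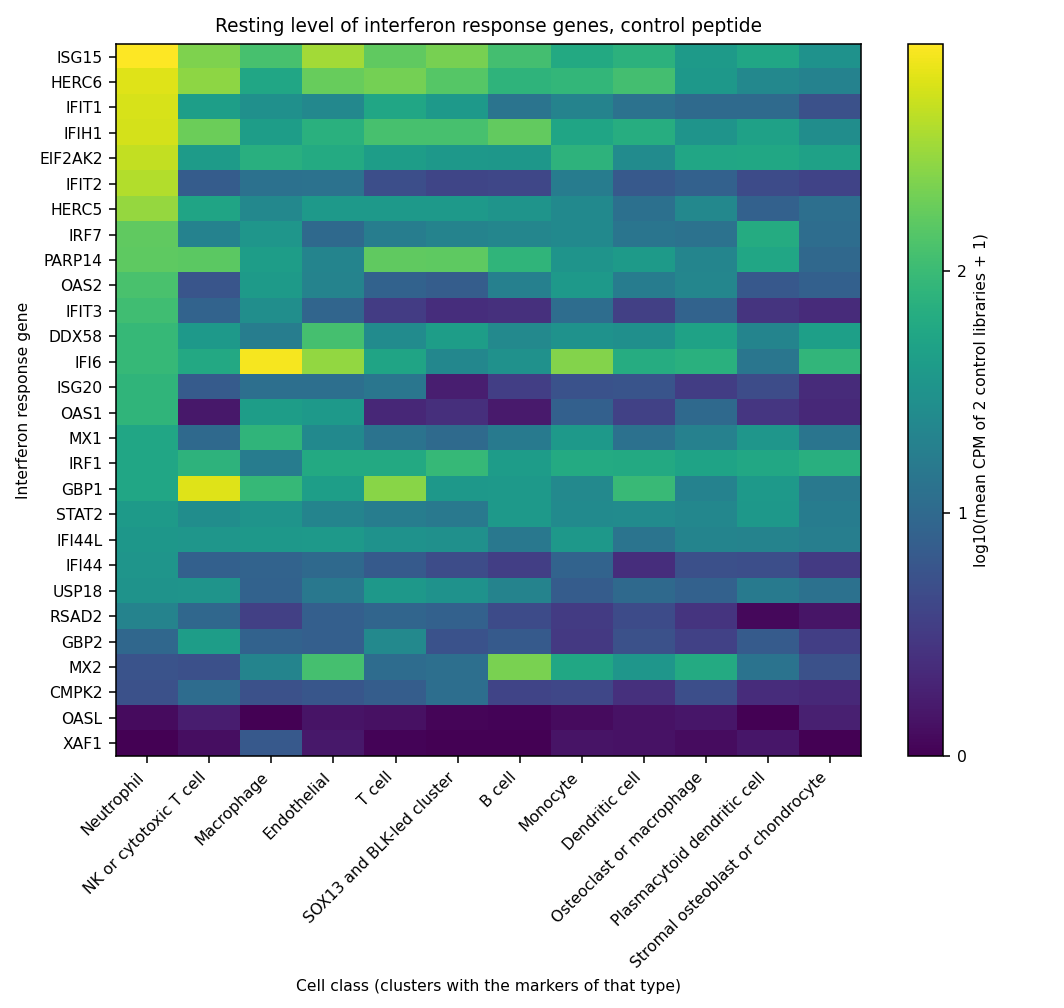
Mean level of each of the 28 interferon response genes (rows) in the 12 cell classes (columns) over the 2 control libraries, as a colour on the scale log10 of CPM + 1. Classes are ordered by summed level from left to right and genes by their level in neutrophil-like cells, the left column, which is the brightest for 15 genes.

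Among the 12 classes compared, neutrophil-like cells had the highest resting level of 15 of the 28 members. Their lead over the next class was beyond the spread of the libraries for 14 of these and not for STAT2. Among the sensors of foreign RNA this held for IFIH1, also called MDA5 (693 and 414 CPM), for EIF2AK2, the kinase PKR that stops translation (485 and 433 CPM), and for OAS1 and OAS2, which make the signal that activates RNase L. In the ISG15 system it held for ISG15, a ubiquitin-like protein tag (1003 and 721 CPM), and for the ligase family genes HERC6 (736 and 514 CPM) and HERC5 (349.6 and 234 CPM). The 3 IFIT genes, whose products bind RNA and restrain translation, were concentrated there too. IFIT1 stood at 698 and 439.8 CPM in neutrophil-like cells, against a mean of 53.9 CPM in the next class compared, and IFIT2 stood at 466 and 322 CPM, against 15.9 CPM. In erythroid-like cells, which were not compared, IFIT1 alone held 36.55% of the summed member level over the 4 libraries.

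Other members peaked elsewhere. GBP1, a guanylate-binding GTPase that interferon-gamma induces strongly, was highest in NK or cytotoxic T cell-like cells (444 and 807 CPM), and so was its neighbour GBP2. MX2, a dynamin-like GTPase of the nuclear envelope, was highest in B cell-like cells (262 and 183 CPM). IFI6, a small membrane protein of mitochondria and the endoplasmic reticulum, was highest in macrophage-like cells, where 1 library set the mean (355 and 1199 CPM), and in endothelial-like cells (253 and 329 CPM). DDX58, the RNA sensor RIG-I, led in endothelial-like cells (117 and 118 CPM). OASL stayed at or below a mean of 0.8 CPM in every class and XAF1 at or below 0.55 CPM in every class other than macrophage-like cells, where it had 5.70 CPM, so both were near the limit of what could be measured.

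In the sum of all cells the members were slightly lower with peptide 1797, and 0 of them passed the test. Their summed level was 973 and 1165 CPM in the 1797 libraries and 1259 and 1433 CPM in the control libraries, so that the groups did not overlap and the 1797 mean was 79.4% of the control mean. The 5 members with most UMIs in the tissue were ISG15, HERC6, IFIH1, GBP1 and PARP14. ISG15 stood at 114 and 122 CPM in the 1797 libraries and 193 and 179 CPM in the control libraries (log2 fold change -0.65 ± 0.17, SE). HERC6 stood at 100.1 and 128 CPM against 144 and 169 CPM and IFIH1 at 107 and 131 CPM against 128 and 128 CPM. Both 1797 libraries lay below both control libraries for ISG15 and HERC6, while those of IFIH1 overlapped. GBP1 had 127 and 74.3 CPM against 134 and 117 CPM, and PARP14, an ADP-ribosyltransferase, had 65.3 and 76.9 CPM against 73.1 and 93.3 CPM.

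IFI6 had 47.7 and 46.5 CPM against 64.0 and 109 CPM (log2 fold change -0.87 ± 0.30), and USP18, which removes ISG15 from proteins and dampens the type I receptor, had 14.8 and 12.7 CPM against 22.0 and 19.0 CPM (log2 fold change -0.57 ± 0.20). MX2 was the 1 member with a higher mean level, at 64.5 and 65.5 CPM against 59.2 and 32.8 CPM (log2 fold change 0.50 ± 0.34). By the quasi-likelihood test of edgeR, 0 of 28 members were called at an adjusted p of 0.05, as were 0% of the 16657 genes tested, and 3 members had an unadjusted p under 0.05, against 1.66% of all genes. DESeq2 called 0 members as well, and 18 of 18990 genes. Of the 28 members, 27 had a negative fold change, against 48.3% of all genes, and their median was -0.32 against 0.01 for all genes. Without 1797 library 1, 18 of 28 were lower with a median of -0.18, and without control library 2 it was 21 of 28 with a median of -0.13. Markers of NK or cytotoxic T cells, which have the second highest member level, summed to 729 and 737 CPM with peptide 1797 against 1424 and 967 CPM, and their part in the result was not tested. In a sum over cells, here or within a class, a lower level per cell and a smaller number of high cells cannot be told apart. The shares of the cell types also differed between libraries, so each class was compared on its own.

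**Figure D2:**
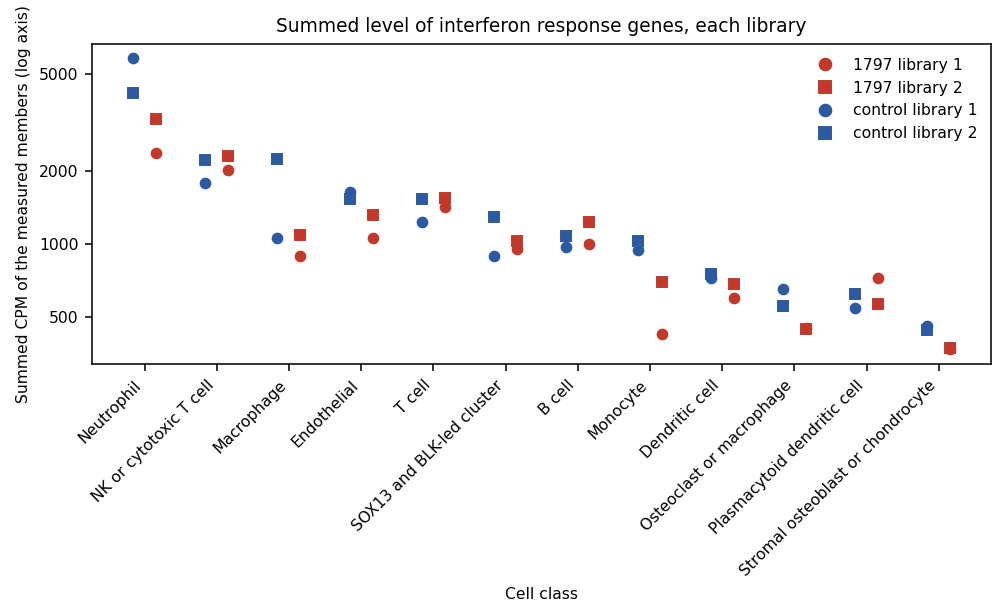
Summed CPM of the measured members in each of the 12 cell classes on a log axis, with 1 point for each library (red 1797, blue control; circles library 1, squares library 2). Neutrophil-like cells are highest in all 4 libraries, and their 1797 libraries, at 2378 and 3284 CPM, lie below their control libraries, at 5807 and 4186 CPM.

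Neutrophil-like cells had the lowest median log2 fold change of the members among the 12 classes. Of the members that passed the filter on low counts there, 25 of 26 had a lower mean level with peptide 1797 (54.6% of all genes tested did), and for 15 of them both 1797 libraries lay below both control libraries. Of all 10503 genes tested in that class, 22.7% had both 1797 libraries below both controls. No member had both above, against 7.99% of all genes. The median log2 fold change was -0.78 over the members and -0.05 over all genes. The summed level was 2378 and 3284 CPM in the 1797 libraries and 5807 and 4186 CPM in the control libraries, a 1797 mean of 56.7% of the control mean, and it was lower in 2 of 2 libraries.

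The lowest fold changes belonged to neighbouring genes. RSAD2 (viperin), which turns a nucleotide into a chain terminator for viral polymerases, stood at 3.28 and 1.10 CPM in the 1797 libraries and 25.1 and 14.4 CPM in the control libraries (log2 fold change -3.16 ± 0.63, unadjusted p 0.00184 by edgeR). The lower 1797 values rest on 12 and 11 UMIs. CMPK2, the nucleotide kinase encoded beside it, stood at 0.273 and 0.601 CPM against 5.53 and 3.28 CPM (log2 fold change -2.92 ± 0.67), with 1 and 6 UMIs in the 1797 libraries. IFI6 stood at 23.5 and 24.9 CPM against 77.4 and 105 CPM (log2 fold change -1.77 ± 0.36, unadjusted p 0.00215 by edgeR). For each of these genes the 1797 libraries lay close together or near 0 and well apart from the controls. IFI44L, a gene of unsettled function with antiviral activity, stood at 8.74 and 12.4 CPM against 28.2 and 41.6 CPM (log2 fold change -1.56 ± 0.41), and its neighbour IFI44 at 3.55 and 14.02 CPM against 29.3 and 36.9 CPM (log2 fold change -1.70 ± 0.63). MX1, a cytoplasmic dynamin-like GTPase that traps viral particles, had 25.4 and 17.5 CPM against 59.7 and 48.9 CPM, and the exonuclease ISG20 had 33.6 and 46.5 CPM against 81.8 and 84.2 CPM. None of these 4 genes overlapped between the groups.

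**Figure D3:**
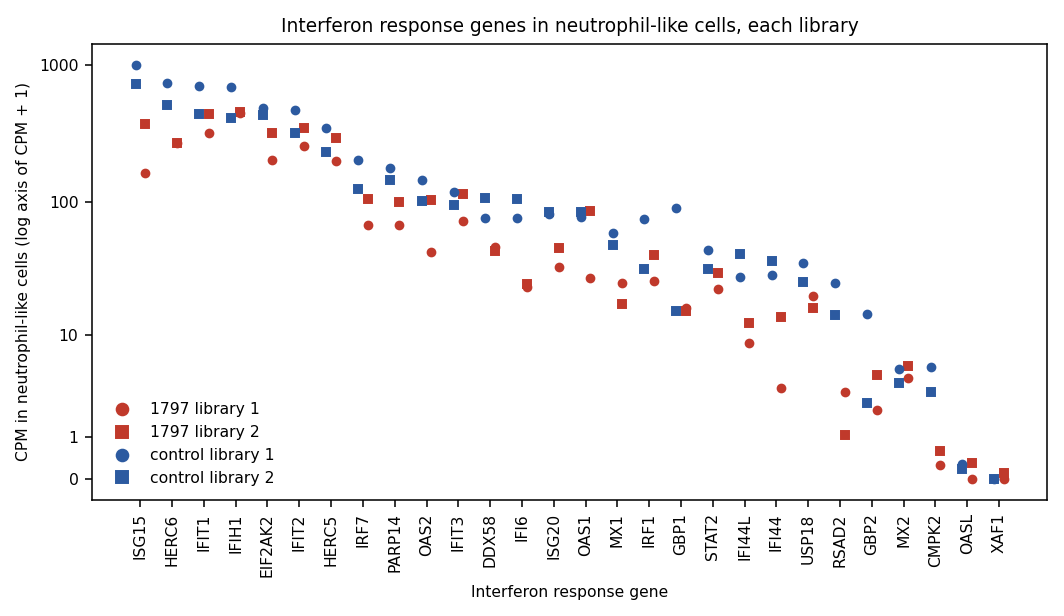
Level of each of the 28 members in neutrophil-like cells, in CPM on a log axis of CPM + 1, with 1 point for each library (red 1797, blue control; circles library 1, squares library 2). Genes are ordered by their control mean. The red points lie below the blue ones for 15 of the 26 members that were tested, among them ISG15, IFI6, RSAD2 and CMPK2, and between or among them for the IFIT genes, IFIH1 and HERC5.

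The ISG15 system was split. ISG15 itself stood at 164 and 369 CPM in the 1797 libraries and 1003 and 721 CPM in the control libraries (log2 fold change -1.54 ± 0.48) and HERC6 at 269 and 270.3 CPM against 736 and 514 CPM (log2 fold change -1.07 ± 0.34), both with the groups apart. HERC5 stood at 201 and 297 CPM against 349.6 and 234 CPM, with the groups overlapping (log2 fold change -0.08 ± 0.39). USP18 was at 20.2 and 16.3 CPM against 35.9 and 25.7 CPM and did not overlap.

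Among the RNA sensors, DDX58 stood at 47.0 and 43.7 CPM against 76.8 and 108 CPM (log2 fold change -0.89 ± 0.35) and EIF2AK2 at 203 and 321 CPM against 485 and 433 CPM (log2 fold change -0.66 ± 0.37), again with the groups apart. IFIH1, the member with the highest level after ISG15 over the 4 libraries, stood at 445 and 451 CPM against 693 and 414 CPM (log2 fold change -0.17 ± 0.36). Its single high value was control library 1, and without that library its log2 fold change was 0.34. OAS1 and OAS2 overlapped between the groups too, with 1797 library 1 low for both.

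The IFIT genes varied as much within as between the groups. IFIT1 had 320.0 and 439.9 CPM against 698 and 439.8 CPM, IFIT2 had 259 and 349 CPM against 466 and 322 CPM and IFIT3 had 72.6 and 114 CPM against 119 and 96.4 CPM, and their log2 fold changes lay between -0.44 and -0.05. Of the transcription factors, IRF7, the amplifier of type I interferon, had 68.0 and 105 CPM against 205 and 126 CPM and STAT2 had 22.9 and 29.9 CPM against 44.8 and 32.2 CPM, with the groups apart, while IRF1 overlapped. GBP1 was at 16.4 and 15.6 CPM against 90.6 and 15.4 CPM, so that its difference came from control library 1, and its log2 fold change of -1.58 turned to 0.27 without that library. MX2 was the 1 member tested with a higher mean, at 4.37 and 5.61 CPM against 5.25 and 3.99 CPM (log2 fold change 0.30 ± 0.44), and overlapped.

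By edgeR, 0 of the 26 members were called in neutrophil-like cells, with adjusted p of 0.9999 at the lowest, and 0% of the 10503 genes were called. Of the members, 10 had an unadjusted p under 0.05, all lower, against 2.63% of all genes in either direction and 0.838% lower. DESeq2 called RSAD2 (adjusted p 0.00916), among 12 of 17287 genes called. Leaving out control library 1 moved the median of the members from -0.78 to -0.31. Markers of chondrocytes summed to 112 and 43.9 CPM in the 1797 libraries of this class against 24.3 and 32.5 CPM, and their part in these values was not tested.

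Over all 12 classes and the sum of all cells, edgeR called 0 of 312 member tests at an adjusted p of 0.05 (0.000673% of all 148540 gene tests were called), and DESeq2 called 2 (0.179% of its 222816 gene tests). An unadjusted p under 0.05 was reached by 38 member tests, 31 of them lower, against 5.01% of all gene tests. For a single value, the smallest two-sided p of an exact permutation over these libraries is 0.33, above the threshold.

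The lower level in neutrophil-like cells could be counted cell by cell. Each cell of 1000 or more UMIs was thinned to 1000, since depth differed between libraries. A cell was called high with at least 5 member UMIs of the 1000. Cells with fewer than 1000 UMIs were left out. In neutrophil-like cells these were 226 of 2190 and 400 of 5082 with peptide 1797, and 125 of 2034 and 70 of 3881 with the control peptide. In macrophage-like cells they were 267 of 396 and 163 of 273, against 305 of 527 and 435 of 610. In neutrophil-like cells, the share of high cells with peptide 1797 was 15.7% (95% Clopper-Pearson interval 14.1% to 17.4%) and 24.5% (23.3% to 25.8%), against 38.9% (36.7% to 41.2%) and 36.4% (34.9% to 38.0%) with the control peptide. The groups did not overlap, with a mean difference of -17.6 percentage points. The intervals cover counting error only, and the exact two-sided permutation p is 0.33, the smallest these 4 libraries allow. Without thinning, and over all cells of the class, the shares of cells at the same rate were 13.3% and 22.6% against 36.1% and 34.0%.

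High cells were picked by their member UMIs. That they held more members, and most of the member UMIs, follows from the cut and is a description. The 3589 high neutrophil-like cells expressed a median of 8 members at a median depth of 1725 UMIs, and the other 8777 cells a median of 1 member at 1832 UMIs. High cells held 66.4% and 79.2% of the member UMIs of the class with peptide 1797 and 83.9% and 86.4% with the control peptide. The level within high cells was also somewhat lower with peptide 1797, at 10.8 and 12.5 member UMIs per 1000 against 13.3 and 13.8.

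Within the high cells, the members differed from each other in direction. RSAD2 stood at 19.8 and 4.10 CPM in high cells of the 1797 libraries against 65.4 and 51.3 CPM in those of the control libraries, and ISG15 at 889 and 1597 CPM against 2482 and 2546 CPM. IFIT1, at 1567 and 1775 CPM against 1668 and 1502 CPM, and IFIH1, at 1449 and 1459 CPM against 1267 and 1208 CPM, were as high in 1797 high cells as in control ones or higher. Because a cell was called high from the sum of these same genes, these values are a description.

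The class was made of clusters led by different genes. The cluster with most of the cells in every library had a member, IFIT2, among its 10 leading genes although members were kept out of the clustering. Those leading genes held 0 neutrophil markers, while 11 of the markers reached 10 CPM in the cluster. In that cluster, the shares of high cells were 16.5% and 28.4% against 39.8% and 47.9%. In the cluster led by granule genes such as LTF and MMP8 they were 1.94% and 1.88% against 6.25% and 2.86%, the 6.25% resting on 48 cells. A small cluster of 45 cells, led by STEAP4, IFIT2 and IFIT3, had 25.0% and 66.7% against 33.3% and 68.4%, so that the groups overlapped there, each share resting on 6 to 19 cells. The edgeR fit of the larger cluster alone had 25 of 26 members lower and 0 called. Neutrophil-like cells also supplied most high cells of the whole tissue, 58.9% and 81.7% of them with peptide 1797 and 70.2% and 83.1% with the control peptide, while the shares over all cells, 5.23% and 12.4% against 9.22% and 16.2%, were higher in library 2 of each group, as the neutrophil share was, and overlapped. Of erythroid-like cells, which were not compared, 3.85% and 17.3% were high with peptide 1797 and 15.7% and 17.5% with the control peptide, the last resting on 40 cells.

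**Figure D4:**
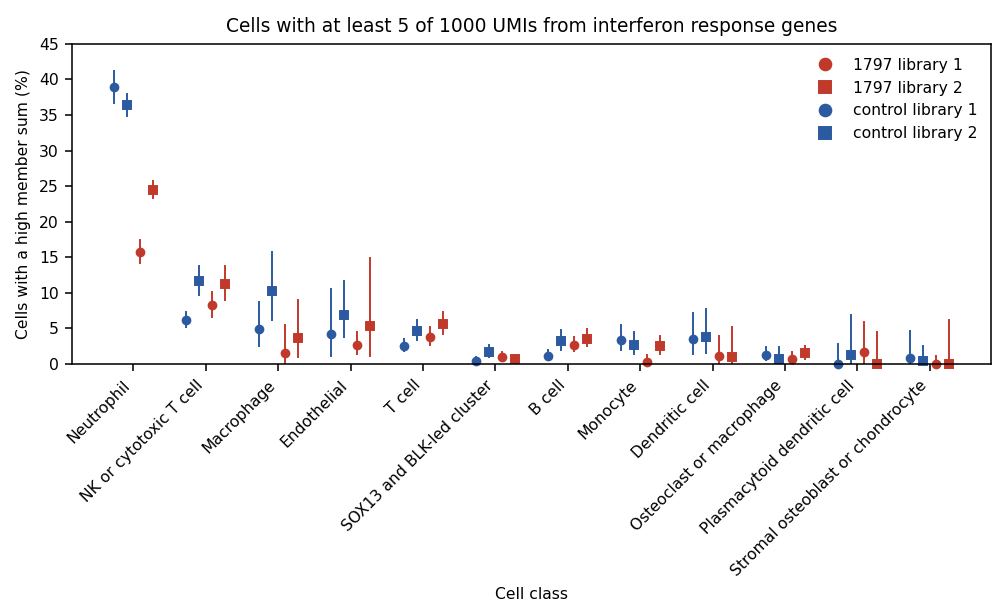
Share of cells (%) with at least 5 member UMIs after thinning to 1000 UMIs, in each cell class and library (blue control, red 1797; circles library 1, squares library 2), with 95% Clopper-Pearson intervals as lines. Cells with fewer than 1000 UMIs are not counted. Neutrophil-like cells stand at 15.7% and 24.5% with peptide 1797 against 38.9% and 36.4% with the control peptide, and no library of the other 11 classes exceeds 12%.

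Monocyte-like cells, the blood-derived precursors of macrophages and osteoclasts, had the next lowest median. Their summed level was 425 and 698 CPM in the 1797 libraries and 944 and 1029 CPM in the control libraries, without overlap. Of 26 members tested, 23 had a lower mean (54% of all genes did), and 16 had both 1797 libraries below both controls, against 29.7% of the 11498 genes tested. The median log2 fold change was -0.67 over the members and -0.04 over all genes. It was -1.38 without 1797 library 2 and -0.28 without 1797 library 1. IFI6 was the clearest member, at 61.5 and 105 CPM in the 1797 libraries and 234 and 255 CPM in the control libraries (log2 fold change -1.46 ± 0.26, unadjusted p 0.000952, adjusted p 0.374 by edgeR). ISG15 had 20.3 and 31.8 CPM against 58.0 and 62.8 CPM (log2 fold change -1.11 ± 0.25), IFI44L had 12.6 and 20.1 CPM against 36.3 and 34.8 CPM (log2 fold change -1.02 ± 0.27) and USP18 had 2.51 and 2.44 CPM against 6.04 and 6.39 CPM (log2 fold change -1.24 ± 0.35).

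All 4 of these genes were lower in both 1797 libraries. HERC6, at 25.9 and 69.0 CPM against 91.0 and 85.1 CPM, did not overlap either, with 1797 library 1 far below the rest. IRF1, the factor shared by the interferon-gamma and tumour necrosis factor routes, went the other way at 67.6 and 69.5 CPM against 62.2 and 60.3 CPM (log2 fold change 0.25 ± 0.17). By edgeR, 0 of the 26 members and 0% of all genes were called, and 6 members had an unadjusted p under 0.05, against 8.40% of all genes. DESeq2 called IFI6 (adjusted p 0.000475), among 80 of 17070 genes called. The shares of high cells were 0.231% and 2.46% against 3.38% and 2.64%. Stromal or osteoblast markers in this class summed to 762 and 517 CPM in the 1797 libraries against 1198 and 1116 CPM, and neutrophil markers to 4140 and 4505 CPM against 2405 and 3549 CPM. The part of either list in the result was not tested.

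The resorbing lineage showed a smaller difference of the same sign. In the class with osteoclast and macrophage markers the summed level was 449.9 and 446 CPM in the 1797 libraries and 651 and 558 CPM in the control libraries. Of 26 members tested, 24 had a lower mean (50.4% of all genes did) and 16 had the 1797 libraries below both controls, against 24.6% of 12771 genes. IFIH1 stood at 18.1 and 19.4 CPM in the 1797 libraries and 35.0 and 29.4 CPM in the control libraries (log2 fold change -0.72 ± 0.19), IFIT3 at 3.14 and 3.95 CPM against 8.04 and 7.23 CPM (log2 fold change -1.03 ± 0.30) and ISG15 at 14.7 and 17.1 CPM against 53.9 and 23.4 CPM (log2 fold change -1.22 ± 0.41). All 3 were below both controls, and control library 1 stood alone for ISG15.

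ISG20 had 0.786 and 1.21 CPM against 2.01 and 2.89 CPM there (log2 fold change -1.18 ± 0.50). The members with most UMIs, IFI6 and MX2, had 57.4 and 53.9 CPM against 69.1 and 75.8 CPM and 40.9 and 45.5 CPM against 73.4 and 49.9 CPM, and GBP2 was the member of opposite sign with the smallest p, at 2.55 and 3.19 CPM against 2.75 and 2.60 CPM. By edgeR, 0 of 26 members and 0% of all genes were called, with 3 members at an unadjusted p under 0.05, all lower, against 7.85% of all genes in either direction and 5.03% lower. The T cell markers of this class summed to 67.1 and 60.9 CPM against 169 and 92.7 CPM and its B cell markers to 269 and 249.9 CPM against 509 and 434 CPM, both lower in the 1797 libraries, and their part in the result was not tested. In the deep cluster of this class alone, 24 of 26 members had a lower mean, with a median log2 fold change of -0.37. In its shallow cluster, which holds 1676 of the 3420 cells, 6 of the 9 members tested had a lower mean, with a median of -0.14.

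Macrophage-like cells, led by the complement genes C1QA and C1QB, had 764 to 855 UMIs per cell at the median and were the shallowest class tested. Their summed level was 891 and 1086 CPM with peptide 1797 and 1063 and 2238 CPM with the control peptide, and the groups overlapped. Of 17 members tested, 15 had a lower mean (50.4% of all genes did) and 6 had both 1797 libraries below both controls, against 18.4% of the 5253 genes. IFI6 had 338 and 296 CPM against 355 and 1199 CPM (log2 fold change -1.24 ± 0.46), but without control library 2 its log2 fold change was -0.11. In that fit 10 of 18 members had a lower mean, and the median of the members moved from -0.41 to -0.07. OAS2 had 17.5 and 21.2 CPM against 33.5 and 44.5 CPM, ISG15 had 67.7 and 90.7 CPM against 112 and 128 CPM and IRF7 had 13.1 and 24.2 CPM against 36.6 and 30.8 CPM, each with the groups apart. IRF1 was higher in both 1797 libraries, at 30.6 and 27.2 CPM against 7.97 and 24.0 CPM. By edgeR, 0 members and 0% of all genes were called, with IFI6 the 1 member at an unadjusted p under 0.05, which 3.48% of all genes reached. Without control library 1, the median of the members was -0.71, with control library 2 alone in its group. NK markers in this class summed to 2408 and 2456 CPM against 2819.9 and 4474 CPM, and their part was not tested.

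In lymphocytes with cytotoxic markers most members had a higher mean with peptide 1797. In NK or cytotoxic T cell-like cells the summed level was 2016 and 2306 CPM in the 1797 libraries and 1776 and 2227 CPM in the control libraries, with the groups overlapping. Of 25 members tested, 19 had a higher mean and 6 a lower one (50.6% of all genes were lower), 4 had both 1797 libraries above both controls (12.7% of the 11680 genes did) and 0 had them below (17.8% did). RSAD2 stood at 14.98 and 20.01 CPM in the 1797 libraries and 9.47 and 7.67 CPM in the control libraries (log2 fold change 1.05 ± 0.27, unadjusted p 0.00753 by edgeR) and IFIT3 at 12.2 and 18.8 CPM against 7.10 and 7.93 CPM (log2 fold change 1.07 ± 0.29). MX1 had 13.1 and 12.6 CPM against 8.98 and 9.36 CPM (log2 fold change 0.52 ± 0.23).

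For these 3 genes and ISG20 both 1797 libraries were the higher ones, the reverse of their order in monocyte-like cells. CMPK2 overlapped at 11.004 and 16.3 CPM against 7.66 and 12.3 CPM. The members with the highest level, GBP1 (758 and 599 CPM against 444 and 807 CPM) and HERC6 (275 and 325 CPM against 242 and 302 CPM), overlapped as well, and IRF7 led the members of lower mean at 13.1 and 18.6 CPM against 21.3 and 16.5 CPM. By edgeR, 0 of 25 members and 0% of all genes were called, and 2 members had an unadjusted p under 0.05, both higher, against 3.52% of all genes. The median log2 fold change of the members was 0.27, against 0.00 for all genes. It was -0.03 without 1797 library 2. Stromal or osteoblast markers in this class summed to 829 and 448 CPM with peptide 1797 against 919.6 and 1115 CPM, and their part in these values was not tested. High cells made up 8.23% and 11.2% of this class with peptide 1797 and 6.22% and 11.6% with the control peptide.

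In T cell-like cells, led by ICOS and CD28, the summed level overlapped between the groups, at 1426 and 1548 CPM against 1230 and 1529 CPM. ISG20 stood at 21.5 and 19.8 CPM against 11.03 and 15.4 CPM (log2 fold change 0.68 ± 0.23) and IFIH1 at 144 and 156 CPM against 113 and 126 CPM (log2 fold change 0.36 ± 0.14), with the 1797 libraries above the controls, as they were for IFI44L at 37.3 and 40.2 CPM against 29.7 and 31.4 CPM. HERC5 had 27.8 and 28.2 CPM against 35.4 and 39.4 CPM and was lower in both 1797 libraries. GBP1 (349.7 and 247 CPM against 221 and 302 CPM) and HERC6 (206 and 281 CPM against 167 and 250.3 CPM), the members with most UMIs, overlapped. Of 25 members, 3 had both 1797 libraries above both controls (14.1% of 11992 genes) and 2 had them below (20.5%). By edgeR, 0 members and 0% of all genes were called, and 2 members had an unadjusted p under 0.05, both higher, against 5.30% of all genes. NK or cytotoxic T cell markers in this class summed to 444 and 416 CPM against 598 and 734 CPM, and their part was not tested.

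**Figure D5:**
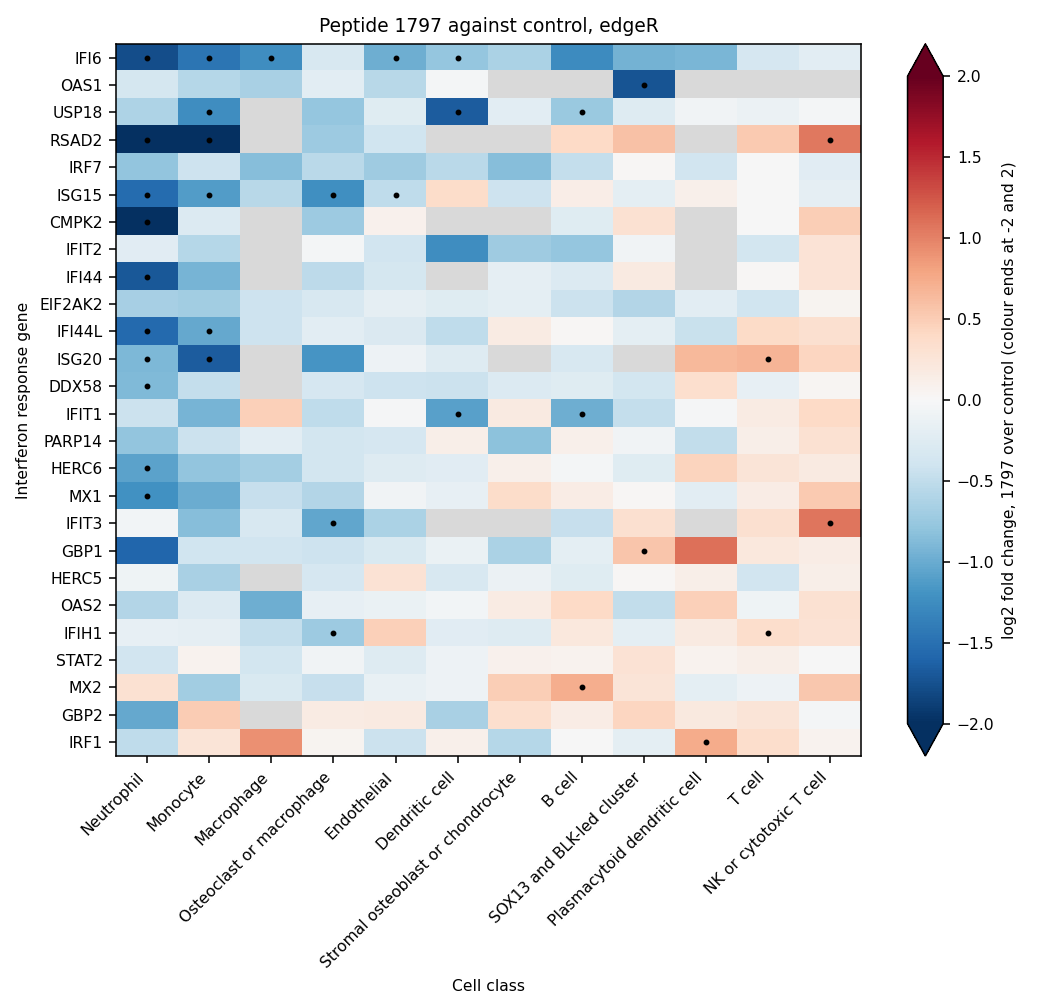
log2 fold change of 1797 over control by edgeR for the 26 members tested in at least 1 class (rows) in the 12 cell classes (columns, ordered by the median of the members), blue for lower and red for higher, with colours ending at -2 and 2. Grey marks members that did not pass the filter on low counts, and dots mark an unadjusted p under 0.05. IFI6, in the top row, is blue in all 12 classes, and the columns of T and NK or cytotoxic T cell-like cells at the right hold more red than blue.

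Whether the peptide difference itself differed between classes was tested with the library as a block and a class by peptide term. This test was added after the class values were seen. Between neutrophil-like and NK or cytotoxic T cell-like cells, edgeR called 0 of 26 members and 0% of 12479 genes. The difference was negative for 25 of 26 members and for 43.5% of all genes, and 10 members had an unadjusted p under 0.05, all negative, against 0.609% of all genes. For RSAD2 the log2 difference was -4.18 ± 0.61 (unadjusted p 7.755e-05, adjusted p 0.791). For IFI44L it was -1.79 ± 0.40, for MX1 -1.65 ± 0.40 and for ISG15 -1.47 ± 0.41. Between monocyte-like and NK or cytotoxic T cell-like cells, 0 of 26 members and 0.00784% of all genes were called, and 14 members had an unadjusted p under 0.05, all negative, against 2.70% of all genes. Between neutrophil-like and T cell-like cells, 0 members and 0% of all genes were called, and 9 members had an unadjusted p under 0.05, all negative, against 0.756% of all genes. DESeq2 was not run for these differences. A differing response of these classes was thus not shown at the adjusted threshold.

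Endothelial-like cells, which line vessels, lay between these patterns. Their summed level was 1060 and 1323 CPM in the 1797 libraries and 1631 and 1536 CPM in the control libraries, without overlap. IFI6 stood at 127 and 160.4 CPM in the 1797 libraries and 253 and 329 CPM in the control libraries (log2 fold change -0.98 ± 0.26) and ISG15 at 217 and 237 CPM against 369 and 313 CPM (log2 fold change -0.52 ± 0.20). OAS1 had 20.6 and 29.7 CPM against 42.7 and 33.2 CPM and DDX58 had 86.1 and 83.4 CPM against 117 and 118 CPM, and the groups were apart for all 4 genes. IFIH1 was higher in both 1797 libraries, at 105 and 89.9 CPM against 61.3 and 83.3 CPM (log2 fold change 0.48 ± 0.28). Of 26 members, 9 had both 1797 libraries below both controls, against 20.9% of 11660 genes. With edgeR, 0 members and 0% of all genes were called, and 2 members had an unadjusted p under 0.05, both lower, against 4.51% of all genes. The libraries held 604 and 67 cells of this class against 99 and 192.

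Dendritic cell-like cells, the antigen-presenting class, had lower values of 19 of the 22 members tested (49.8% of all genes were lower). USP18 stood at 3.49 and 1.98 CPM against 8.47 and 9.66 CPM (log2 fold change -1.66 ± 0.45), IFI6 at 35.5 and 38.5 CPM against 56.1 and 73.2 CPM (log2 fold change -0.77 ± 0.22) and IFIT1 at 5.39 and 5.55 CPM against 10.8 and 12.97 CPM (log2 fold change -1.08 ± 0.33). ISG15 went the other way, at 95.7 and 94.4 CPM against 76.5 and 75.0 CPM (log2 fold change 0.36 ± 0.18), and this was the 1 class in which both 1797 libraries held more of it. HERC6 (75.4 and 116 CPM against 116 and 113 CPM) and GBP1 (89.4 and 81.3 CPM against 107 and 84.9 CPM), the members with most UMIs, overlapped. Both 1797 libraries were below both controls for 7 members, against 21.1% of 10256 genes, and edgeR called 0 members and 0% of all genes, with 3 members at an unadjusted p under 0.05, against 6.50% of all genes. Several marker lists moved with the groups in this class. Markers of T cells summed to 210 and 126 CPM with peptide 1797 against 267 and 214 CPM, of B cells to 137 and 176 CPM against 189 and 244 CPM, of stromal cells or osteoblasts to 751 and 596 CPM against 825 and 1044 CPM, and of monocytes, which were higher, to 1751 and 1740 CPM against 1083 and 1443 CPM. Their part in these values was not tested.

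B cell-like cells were marked by MX2, which held 26.9% of the summed member level and stood at 357 and 351 CPM against 262 and 183 CPM (log2 fold change 0.73 ± 0.20), above both controls. USP18 had 10.9 and 11.5 CPM against 20.2 and 18.9 CPM (log2 fold change -0.74 ± 0.20), IFIT1 had 4.38 and 7.74 CPM against 9.08 and 16.005 CPM (log2 fold change -0.98 ± 0.39) and IRF7 had 15.3 and 13.9 CPM against 20.4 and 22.2 CPM, all below both controls. IFIH1, the member with most UMIs after MX2, was higher in 2 of 2 libraries at 175 and 203 CPM against 167 and 172 CPM, by an amount close to the spread within the 1797 group. Of 25 members, 6 had both 1797 libraries below both controls (25.2% of 12464 genes) and 4 had them above (14.6%). After adjustment in edgeR, 0 members and 0% of all genes were called, and 3 members had an unadjusted p under 0.05, against 7.11% of all genes. In this class T cell markers summed to 102 and 89.7 CPM with peptide 1797 against 167 and 132 CPM and NK or cytotoxic T cell markers to 87.6 and 91.04 CPM against 165 and 148 CPM, and their part in these values was not tested.

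Plasmacytoid dendritic cell-like cells, a lineage known for making type I interferon, had 81 to 136 cells in each library. IRF1 stood at 108 and 85.5 CPM against 64.6 and 49.6 CPM (log2 fold change 0.75 ± 0.26) and HERC6 at 25.8 and 36.6 CPM against 24.4 and 20.9 CPM, both above the controls. GBP1 stood at 149 and 16.1 CPM against 44.3 and 31.4 CPM, with 1797 library 1 alone at the top, and PARP14 had 42.4 and 35.0 CPM against 72.4 and 35.0 CPM. Of 20 members tested, 2 had both 1797 libraries above both controls (17.6% of 8944 genes) and 0 had them below (17.8%). In the edgeR fit, 0 members and 0.0112% of all genes were called, and IRF1 was the 1 member with an unadjusted p under 0.05, against 5.74% of all genes.

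The cluster led by SOX13 and BLK had 14 of 25 members lower and 11 higher (51.3% of all genes were lower). OAS1 stood at 0.360 and 0.528 CPM against 1.26 and 1.78 CPM (log2 fold change -1.73 ± 0.62), a level of few UMIs, and GBP1 at 60.4 and 47.1 CPM against 39.9 and 32.0 CPM (log2 fold change 0.56 ± 0.22). EIF2AK2 had 21.7 and 25.9 CPM against 28.7 and 42.2 CPM, RSAD2 had 10.6 and 11.3 CPM against 6.59 and 7.94 CPM and ISG15 had 195 and 183 CPM against 212 and 216 CPM, with the groups apart and RSAD2 higher with the peptide. PARP14 overlapped at 150.5 and 153 CPM against 100.1 and 217 CPM. Both 1797 libraries lay below both controls for 4 members (17.2% of 12136 genes) and above for 5 (18.1%). With edgeR, 0 members and 0% of all genes were called, and 2 members had an unadjusted p under 0.05, 1 in each direction, against 5.36% of all genes. Its NK or cytotoxic T cell markers summed to 63.6 and 72.2 CPM against 151 and 129 CPM, and their part was not tested.

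In the class of stromal, osteoblast and chondrocyte markers, the bone-forming and cartilage cells, the members were at their lowest. IFI6 stood at 47.4 and 62.8 CPM against 93.3 and 74.5 CPM (log2 fold change -0.63 ± 0.29), IRF7 at 5.60 and 5.62 CPM against 13.3 and 7.38 CPM and ISG15 at 28.8 and 15.8 CPM against 29.95 and 30.6 CPM, all below both controls. IRF1 (44.3 and 51.1 CPM against 99.3 and 41.2 CPM) had 1 high value in control library 1, and MX2 was higher at 4.74 and 8.17 CPM against 4.71 and 4.11 CPM. Of 21 members, 4 had both 1797 libraries below both controls, against 15.2% of 12726 genes. After adjustment in edgeR, 0 members and 0% of all genes were called, and 0 members had an unadjusted p under 0.05, against 3.50% of all genes. DESeq2 also called 0 members, and 51 of 17611 genes. The makeup of this class differed between the groups, since the ratio of 1797 to control was 6.57 for its chondrocyte markers and 0.52 for its stromal or osteoblast markers, and their part in these values was not tested.

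Seen by gene over the 12 classes, IFI6 had a negative fold change in 12 of 12, from -0.21 in NK or cytotoxic T cell-like cells to -1.77 in neutrophil-like cells, with both 1797 libraries below both controls in 7. USP18 was lower in 11 of the 11 classes in which it was tested, from -0.03 to -1.66. IRF7 was lower in 11 of 12 and EIF2AK2 in 11 of 12. ISG15 had both 1797 libraries below both controls in 7 classes and above them in 1. RSAD2 was divided, with both 1797 libraries below in 3 classes (endothelial-like, monocyte-like and neutrophil-like) and above in 3 (B cell-like, NK or cytotoxic T cell-like and the SOX13 and BLK-led cluster). In all, 15 of 26 members had both 1797 libraries below both controls in 1 class and above them in another, against 43.2% of the 14921 genes tested, and among those tested in all 12 classes it was 10 of 15 members against 59.2% of 4817 genes. STAT2, the signalling subunit itself, lay between -0.39 and 0.29, with 6 classes on each side. The classes come from the same 4 libraries and are no replicates of each other. IFI6, USP18, IRF7, EIF2AK2 and ISG15 were picked here from the 26 members for their number of classes. In a single class, 15.2% to 29.7% of all genes had both 1797 libraries below both controls. The share of all genes that are lower, or below both controls, in as many classes was not counted, so these counts cannot be called unusual.

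The genes around the members in the pathway were also read. Of 92 measured genes on 7 lists, 86 passed the filter on low counts in at least 1 fit, edgeR called 0 of their 941 tests, and 50 had an unadjusted p under 0.05, 31 of them lower. Over all genes 5.01% of the tests reached that p in either direction and 2.66% did so lower, and the lists are thus near the background. Interferon ligands were scarce. IFNG, the ligand of the gamma route, was found mainly in NK or cytotoxic T cell-like cells, at 28.3 and 39.0 CPM in the 1797 libraries and 25.2 and 19.4 CPM in the control libraries (log2 fold change 0.62 ± 0.26), higher in both 1797 libraries. IFNE, a constitutive type I interferon, was detected in the stromal class, where the groups overlapped, at 7.75 and 3.58 CPM against 5.56 and 11.7 CPM. IFNB1 had 0 and 1 UMIs with peptide 1797 and 32 and 0 with the control peptide.

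The receptor chains were detected in neutrophil-like cells. In these cells IFNAR1 had 203 and 299.8 CPM against 311 and 217 CPM and IFNAR2 157 and 141 CPM against 173 and 188 CPM, with IFNAR2 lower in both 1797 libraries (log2 fold change -0.14 ± 0.31). IFNGR1 had 705 and 910.3 CPM against 584 and 666 CPM there and was higher in both, and IFNGR2 had 128 and 173 CPM against 349.6 and 155 CPM and overlapped. Among the factors, IRF9 stood at 47.8 and 42.2 CPM against 63.3 and 44.8 CPM in neutrophil-like cells and overlapped. The feedback inhibitor SOCS1 overlapped in neutrophil-like cells, at 3.28 and 5.81 CPM against 12.2 and 4.26 CPM, and was higher in both 1797 libraries of monocyte-like cells, at 16.8 and 20.3 CPM against 9.51 and 16.2 CPM.

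Among type I interferon-induced effectors outside the members, 21 of 27 were lower in neutrophil-like cells (16 with both 1797 libraries below both controls, against 22.7% of all genes, and 1 with an unadjusted p under 0.05, against 2.63%), 23 of 30 in monocyte-like cells and 24 of 31 in the class with osteoclast and macrophage markers, while 23 of 30 were higher in NK or cytotoxic T cell-like cells. Over all genes tested, 54.6% were lower in neutrophil-like cells, 54% in monocyte-like cells, 50.4% in the class with osteoclast and macrophage markers and 50.6% in NK or cytotoxic T cell-like cells. Among effectors that lean to interferon-gamma, 13 of 14 were lower in neutrophil-like cells and 11 of 16 in monocyte-like cells, but so were 10 of 14 in NK or cytotoxic T cell-like cells, and 9 of 19 in the class with osteoclast and macrophage markers. The smallest p of that list belonged to CXCL9, the chemokine that draws T cells, in macrophage-like cells, at 34.9 and 69.6 CPM against 134 and 296 CPM (log2 fold change -2.01 ± 0.46, unadjusted p 0.00106 and adjusted p 0.832 by edgeR). This class scored second highest for dendritic cell markers. At Leiden resolution 2.0, CXCL9 led a separate dendritic cell-like cluster of 361 cells, and the part of such cells in this difference was not tested. CIITA, the master regulator of MHC class II, stood at 23.8 and 17.1 CPM against 89.7 and 42.9 CPM in monocyte-like cells (log2 fold change -1.63 ± 0.39) and at 166 and 140.4 CPM against 373 and 256 CPM in dendritic cell-like cells (log2 fold change -1.01 ± 0.24). The death ligand TNFSF10 stood at 0.773 and 1.03 CPM against 3.58 and 7.59 CPM in monocyte-like cells (log2 fold change -2.48 ± 0.54), LY6E at 3.87 and 3.66 CPM against 8.28 and 10.4 CPM in the same cells, and TRIM26 at 5.70 and 7.53 CPM against 14.3 and 16.8 CPM in dendritic cell-like cells.

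The kinase JAK2 stood higher in both 1797 libraries of B cell-like cells, at 435 and 372 CPM against 286 and 267 CPM (log2 fold change 0.61 ± 0.15), and of the SOX13 and BLK-led cluster, at 558 and 552 CPM against 431 and 363 CPM. TBK1, the kinase that relays nucleic acid sensing to IRF3, did so in B cell-like cells, at 142 and 139.7 CPM against 98.8 and 99.8 CPM, in the class with osteoclast and macrophage markers, at 68.5 and 67.4 CPM against 39.9 and 53.8 CPM, and in monocyte-like cells, at 299 and 242 CPM against 198 and 211 CPM. STAT3 (385 and 333 CPM against 269.6 and 240.3 CPM) and SOCS3, its feedback inhibitor (96.6 and 93.7 CPM against 56.2 and 74.7 CPM), were higher in both 1797 libraries of monocyte-like cells. The phosphatase PTPN6 was lower in T cell-like cells (5.90 and 6.55 CPM against 10.7 and 10.2 CPM) and in the SOX13 and BLK-led cluster (13.5 and 11.09 CPM against 16.9 and 19.98 CPM). The receptor chain IFNLR1 stood at 1.90 and 0.793 CPM against 6.88 and 6.36 CPM in dendritic cell-like cells, IL10RB at 4.43 and 4.33 CPM against 6.61 and 8.97 CPM in NK or cytotoxic T cell-like cells and IFNGR2 at 389 and 433 CPM against 351 and 303 CPM in the class with osteoclast and macrophage markers. None of these genes passed the adjusted threshold of edgeR.

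Genes outside the lists whose level followed the mean of the members were sought over the 48 sums of 12 classes and 4 libraries, which share their libraries and depth. ERAP2, an aminopeptidase that trims peptides for MHC class I, had the highest Pearson correlation, at 0.82, and 0.77 after the mean of each class was taken out. LOC100519098 followed with 0.80 and 0.63. VSIR, GCA, IPMK, UBE2B, RAB8B, SAT1, SIPA1 and RFX1 had 0.71 to 0.78, and for most of them the correlation within classes was far lower (GCA 0.26, VSIR 0.27, UBE2B -0.20). On the pathway lists the highest was PARP12, an ADP-ribosyltransferase, at 0.79 and 0.11 within classes.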

How the data were processed

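Single-cell 3′ RNA libraries of regenerated bone were compared, 2 with peptide 1797 and 2 with the control peptide. The deposited matrices hold UMI counts per gene and cell, not normalized. The submitters' processing notes name Cell Ranger 5.0.0 and the Sscrofa11.1 build, while the deposited file headers name version 7.0.1, and how reads over overlapping genes were assigned is not given in the sources used here. All columns were used. A barcode was kept if it held 200 or more genes and 13 mitochondrial genes took less than 20% of its UMIs, and 1413 predicted doublets were removed (a reimplementation of the Scrublet method, expected rate 0.1). Clustering used 2000 variable genes without the members and the pathway genes, 30 principal components, 15 neighbours and Leiden resolution 1.0, in scanpy 1.11.5 and igraph 0.11.9. Of 31 clusters, 9 stayed unnamed. Another, led by SOX13 and BLK, was given no type because its 10 leading genes held 1 B cell marker (BLK) and 0 T cell markers, and it was tested as a cluster after it was seen. The largest neutrophil-like cluster and the plasmacytoid dendritic cell-like cluster also had 0 of their own markers there. They kept their names, as they had 0 markers of another type there.

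Counts were summed per library and class, where a class reached 50 cells in each of the 4, and fitted by edgeR 4.0.16 (quasi-likelihood test) in R 4.3.3 (TMM scaling, filterByExpr), with Benjamini-Hochberg adjustment over all genes of a fit and a threshold of 0.05. DESeq2 1.42.0, other scaling, no filter, a replicate block, left-out libraries, other cell filters and other clusterings were alternatives. The fits were tested on simulated data. In neutrophil-like cells (10503 genes), 99% of genes changed 4-fold and 68% of those changed 2-fold were recovered at a simulated dispersion of 0.01, and 75% and 13.4% at 0.05. Both dispersions were set by hand and not estimated from these libraries. The rates therefore do not tell how often the real fits would find such changes. The members and all lists were chosen with earlier results of these data known. Named with values are the 5 members with most UMIs in the sum of all cells, and in each class the 4 members of smallest p, the 2 of highest level and the member of opposite sign with the smallest p. Other members were named after their values were seen. Pathway genes are the 3 of smallest p on each list, with IFNG, the receptors, IRF9 and SOCS1. Another gene that this rule names is not reported here. Intervals are 95% Clopper-Pearson. No promoter or protein sequences were used.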

Additional observations from a re-analysis of the deposited data

Results flagged for a closer look

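For 15 of the 26 members tested in at least 1 class, both 1797 libraries lay below both controls in 1 class and above them in another. Of all 14921 genes tested, 43.2% did the same. Among those tested in all 12 classes it was 10 of 15 members and 59.2% of 4817 genes, so that the members' share is near the background. Each value below is the log2 fold change of the first class minus that of the second, for the pair of classes farthest apart. Because the pairs were picked for their distance, the values describe these libraries. The difference was tested for RSAD2 and MX1 in the pair named and for IFI44L in neutrophil-like and T cell-like cells, where edgeR called 0 of them after adjustment, and it was not tested for the other 12.

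Among the antiviral effectors, RSAD2 differed by -4.2044 between neutrophil-like and NK or cytotoxic T cell-like cells and MX1 by -1.7326 between the same classes. ISG20 differed by -2.3488 between monocyte-like and T cell-like cells, and IFI44L by -1.9365 between neutrophil-like and T cell-like cells. MX2 differed by -1.1826 between the class with osteoclast and macrophage markers and B cell-like cells. In the ISG15 system, ISG15 differed by -1.898 between neutrophil-like and dendritic cell-like cells, HERC6 by -1.5176 between neutrophil-like and plasmacytoid dendritic cell-like cells, and HERC5 by -0.946 between monocyte-like and endothelial-like cells.

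Among RNA-binding members, IFIT3 differed by -2.1049 between the class with osteoclast and macrophage markers and NK or cytotoxic T cell-like cells, OAS2 by -1.3613 between macrophage-like and B cell-like cells, and IFIH1 by -1.1952 between the class with osteoclast and macrophage markers and endothelial-like cells. Among transcription factors, IRF1 differed by -1.348 between endothelial-like and macrophage-like cells and STAT2 by -0.6747 between neutrophil-like cells and the SOX13 and BLK-led cluster. GBP2 differed by -1.1592 between dendritic cell-like and monocyte-like cells, and GBP1 by -0.9719 between the class with osteoclast and macrophage markers and the SOX13 and BLK-led cluster.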

How the results depend on the processing

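The number of members called moved from 0 under few alternatives. Without the filter on low counts, edgeR called IFI6 in endothelial-like cells, where 187 of 17312 genes were called. In neutrophil-like cells it called RSAD2 and CMPK2, among 30 of 17287 genes. DESeq2 called IFI6 in monocyte-like cells, among 80 of 17070 genes, and RSAD2 in neutrophil-like cells, among 12 of 17287. Calls of fits with a library left out are not given, as 1 group then holds 1 library. Leaving out a library moved the median log2 fold change of the members in neutrophil-like cells between -1.14 and -0.31. In a left-out fit the lone library is assumed to vary like the other group. The summed log2 ratio became -0.0872 in B cell-like and -0.2215 in stromal cells without the highest member. It was 0.0029 in dendritic cell-like cells clustered with the members, where the name also covered a shallow cluster led by CXCL9. It was -0.87 at Leiden resolution 2.0, where the name covered only such a cluster (361 cells) and one led by FLT3 was unnamed. It was -0.5612 in the class with osteoclast and macrophage markers at resolution 0.5, which then took in a cluster of 3485 cells with C1QA and CD5L among its leading genes. These values are thus of partly other cells.

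The share of high cells is given as 1797 minus control in percentage points. In the main setting it was -17.6 in neutrophil-like, 0.95 in B cell-like, -2.66 in dendritic cell-like, -1.59 in endothelial-like, -5.03 in macrophage-like and -1.66 in monocyte-like cells. It was 0.81 in NK or cytotoxic T cell-like, 0.2 in plasmacytoid dendritic cell-like, 1.13 in T cell-like and -0.655 in stromal cells. In the class with osteoclast and macrophage markers it was 0.117 and in the SOX13 and BLK-led cluster -0.235. At 10 or more member UMIs it became -10.2736 in neutrophil-like cells. At 3 or more it was 3.1659 in B cell-like, -4.1366 in dendritic cell-like, -11.9008 in macrophage-like, -4.2838 in monocyte-like, 1.5516 in plasmacytoid dendritic cell-like, 3.7721 in T cell-like and -1.4405 in stromal cells, -2.4786 in the class with osteoclast and macrophage markers and -1.9847 in the SOX13 and BLK-led cluster. At 10 or more it was -0.2718 in dendritic cell-like, 0.1165 in macrophage-like and 0.0 in stromal cells. With cells thinned to 500 UMIs and a cut of 3 member UMIs it was -1.21 in dendritic cell-like, -8.2586 in macrophage-like, 2.3668 in plasmacytoid dendritic cell-like and -0.4202 in stromal cells. Thinned to 2000 UMIs, with a cut of 10, it was -1.1218 in dendritic cell-like, 2.0697 in endothelial-like and 0.0 in stromal cells. Without thinning it was -0.3224 in dendritic cell-like and 0.0 in stromal cells. In other clusterings a name covered partly other cells. These clusterings gave -0.9934 (with members), -2.9922 (resolution 0.5) and -2.2195 (resolution 2.0) in dendritic cell-like cells and -1.8639 in the class with osteoclast and macrophage markers (resolution 0.5). With a library left out it ranged from -0.8475 to -0.463 in stromal, -21.9508 to -13.1646 in neutrophil-like, -2.7753 to -0.5484 in monocyte-like, -7.6923 to -2.3616 in macrophage-like, -2.9349 to -0.2383 in endothelial-like and 0.111 to 2.1431 in T cell-like cells, and it took both signs in NK or cytotoxic T cell-like (-1.883 to 3.5044), B cell-like (-0.0621 to 1.971) and plasmacytoid dendritic cell-like cells (-0.641 to 1.0396), in the class with osteoclast and macrophage markers (-0.2938 to 0.5268) and in the SOX13 and BLK-led cluster (-0.8512 to 0.3802). The cause of these shifts was not tested.

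In the sum of all cells, the deviations of same-numbered libraries from their group means had a correlation of -0.31 over the genes tested. The share of neutrophil-like cells was higher in library 2 of each group. The numbers were not taken as pairs. With the replicate block, and with a crossed block added after this was seen, 0 members were called in each of the 13 fits, and the median in neutrophil-like cells was -0.74 and -0.80. The sign of the members' median held under every alternative run in 7 of the 13 fits, and not in the B cell-like, NK or cytotoxic T cell-like, plasmacytoid dendritic cell-like, stromal and T cell-like classes and the SOX13 and BLK-led cluster. The planned search for promoter motifs was not run.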

Other observations

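IFNB1, the gene of interferon-beta, was nearly confined to a pair of cells. Of 33 UMIs in 5 kept cells, 29 came from 2 cells of control library 1. A neutrophil-like cell held 18 IFNB1 UMIs of 2528 and 82.3 member UMIs per 1000, the rank 3 among 43203 cells. An eosinophil-like cell held 11 of 1252 and 110.2 member UMIs per 1000, the rank 1. Eosinophil-like cells, which had fewer than 50 cells in 1 library and were not tested, had a summed member level of 357 and 414 CPM in the 1797 libraries and 1942 and 453 CPM in the control libraries, so that control library 1 stood alone. Of the 198 member UMIs behind the 1942 CPM, 138 came from the 1 eosinophil-like cell with IFNB1 described above, so that value is not a level of the class.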
